A study of Arabidopsis thaliana with 12 samples.

Results

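AT5G62360, AT3G17130 and AT5G62340 are 3 Arabidopsis genes of the pectin methylesterase inhibitor family, followed here in roots of the ozs3 mutant and the wild type in the cold and at growth temperature. They were found as the probe sets that the platform's probe-to-gene table maps to these loci. Each locus had 1 probe set, so 3 of 22746 tested probe sets and 3 of 13286 genes that could be named are described. The study used roots of ozs3 (overly zinc sensitive 3) plants, in the Col-0 genetic background, and of wild-type Col-0 plants. All plants were 4 weeks old, hydroponically grown in short days (8 h of light, 16 h of darkness). The 4 groups were ozs3 after 24 h at 4 °C, ozs3 kept at 23 °C, Col-0 after 24 h at 4 °C and Col-0 kept at 23 °C, with 3 biological replicates each and 1 Affymetrix ATH1 array per replicate. Which gene is mutated in ozs3 is not stated in the labels, so that gene could not serve as a check of the genotypes, and the labels do not say how many plants or culture vessels stand behind a replicate. The members were chosen with their cold responses known, so their cold differences are given as descriptions with no test.

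Pectin is laid down in the wall as methyl-esterified homogalacturonan. Pectin methylesterases remove the methyl groups, and the de-esterified polymer can be cross-linked by calcium or cut by polygalacturonases and pectate lyases. Pectin methylesterase inhibitors bind the methylesterases in the wall and block them, and they share a fold with the inhibitors of acid invertases, so that sequence alone does not always tell the target enzyme. The gene tables used here give these 3 loci no symbol and no product name, so the family is taken from the name under which they were grouped and from general knowledge of the loci, and no target enzyme is assigned to any of them. RefSeq lists another mutant name of this kind, overly zinc sensitive 2, as a synonym of PME3 (AT3G14310), a pectin methylesterase gene, which was not analysed here.

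The values are log2 intensities as deposited after RMA, the Affymetrix summary that corrects background, normalizes between arrays and gives 1 value per probe set. They ran from 2.91 to 15.04, with array medians of 6.99 to 7.20, and replicate arrays correlated with r of 0.994 to 0.997. There is no read depth behind an array value, and the precision is set by the number of arrays. A probe set is called dim where its mean over all arrays is 5 or less (6429 of 22746). Below, a level is a log2 intensity with its SD over 3 arrays, a difference is a log2 difference with the moderated standard error (SE) from limma, and an adjusted p is limma's with Benjamini-Hochberg correction over all probe sets. Intervals are at 95%. Of 12 root markers 3 had a named probe set, and EXPA7, EXPA18 and XTH26 lay between 5.84 and 9.70 on all arrays. XTH26 averaged 6.32 in ozs3 at 4 °C against 8.15 at 23 °C, and 7.60 in Col-0 at 4 °C against 8.41 at 23 °C. Of 9 shoot markers 4 had one: PRK and SBPASE, of the Calvin cycle, did not exceed 4.72, RCA lay between 6.46 and 7.78, and LHCB4.1, an antenna protein gene of photosystem II, averaged 7.21 in ozs3 at 4 °C against 8.51 at 23 °C, and 7.06 in Col-0 at 4 °C against 8.63 at 23 °C. The part of these marker shifts in the results below was not tested, and in whole roots fewer cells of a type and less RNA per cell cannot be told apart.

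AT5G62360 was high in the cold in both genotypes. Its 3 arrays of ozs3 at 4 °C read 11.93, 11.78 and 12.01, against 8.36, 8.02 and 9.03 in ozs3 at 23 °C. The 3 arrays of Col-0 at 4 °C read 11.87, 11.96 and 12.04, against 7.85, 7.79 and 7.21 in Col-0 at 23 °C. All 6 cold arrays lay within a narrow band and far above all 6 arrays at 23 °C, among which the ozs3 arrays were all above the Col-0 arrays. The cold difference was 3.44 ± 0.21 in ozs3 (10.8-fold) and 4.34 ± 0.21 in Col-0 (20.2-fold), which placed it 34 in ozs3 and 8 in Col-0 among the rises of all 22746 probe sets. For reference, 51.1% of all probe sets passed the threshold of adjusted p under 0.05 in the cold contrast in ozs3 and 43.9% in that in Col-0. The arrays of the 2 temperatures did not overlap for 58.4% of all probe sets in ozs3 and for 52.1% in Col-0. Nothing is read from the gene's place against these shares, because it was chosen on these contrasts.

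**Figure D1:**
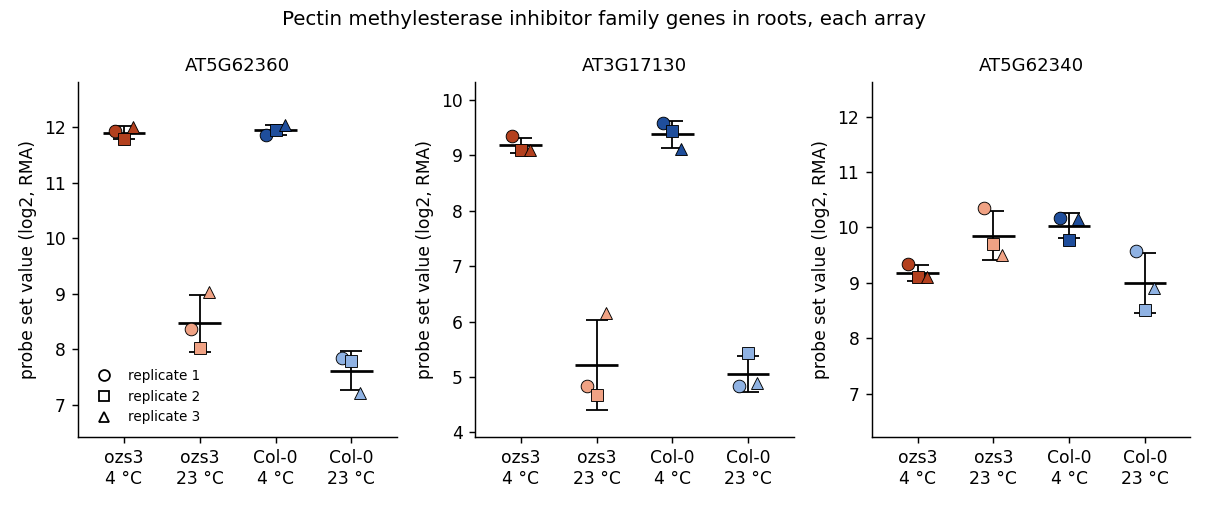
Log2 RMA value of each gene on each of the 12 arrays, by genotype and temperature; symbols are replicates, horizontal lines are group means and bars are the SD (n = 3). Each panel spans the same number of log2 units, so slopes can be compared between panels but levels cannot: AT5G62360 and AT3G17130 lie high in both cold groups, and AT5G62340 is lower in ozs3 at 4 °C than at 23 °C but higher in Col-0 at 4 °C than at 23 °C.

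AT5G62360 was called higher in ozs3 than in Col-0 at 23 °C, a call that did not hold in every fit. The level averaged 8.47 ± 0.51 in ozs3 at 23 °C and 7.61 ± 0.35 in Col-0 at 23 °C (SD, n = 3 each), a difference of 0.85 ± 0.21 (1.81-fold, interval 0.40 to 1.31, limma adjusted p = 0.0293), and 6.34% of all probe sets were called in this contrast. The arrays of the genotypes did not overlap, as was the case for 26.0% of all probe sets. With the replicate number as a block the adjusted p was 0.0220. The call was lost when replicate 3 of ozs3 at 23 °C (0.57, adjusted p = 0.0678), replicate 1 of ozs3 at 23 °C (0.91, adjusted p = 0.0645) or replicate 3 of Col-0 at 23 °C (0.65, adjusted p = 0.108) was left out, and also in the fits with only the arrays compared and with array weights. Differences between same-numbered arrays were 0.51, 0.23 and 1.81, so replicate 3 contributed most of the mean. For AT5G62360 and AT3G17130 the genotype contrasts and the interaction share arrays with the cold contrasts on which the genes were chosen, so they are not independent of that choice.

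At 4 °C AT5G62360 averaged 11.91 ± 0.11 in ozs3 and 11.95 ± 0.08 in Col-0, a difference of -0.05 ± 0.21 whose interval ran from -0.50 to 0.41 (limma adjusted p = 0.919). In order of level, the cold groups of Col-0 and ozs3 came first and did not differ beyond their spread, then ozs3 at 23 °C, then Col-0 at 23 °C. The cold difference was smaller in ozs3 than in Col-0 by 0.90 ± 0.30 on the log2 scale (interaction of -0.90, interval -1.54 to -0.26), which did not pass the threshold (limma adjusted p = 0.0745, where 10.1% of all probe sets were called). It passed without replicate 2 of ozs3 at 23 °C (-1.12, adjusted p = 0.0286).

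AT3G17130 was also high in the cold in both genotypes, and its levels at 23 °C were near the limit for dim probe sets. The arrays of ozs3 read 9.34, 9.10 and 9.09 at 4 °C, against 4.84, 4.67 and 6.15 at 23 °C. The arrays of Col-0 read 9.58, 9.43 and 9.12 at 4 °C, against 4.84, 5.43 and 4.90 at 23 °C. Every cold array was high, 5 of the 6 arrays at 23 °C lay near the limit for dim probe sets, and replicate 3 of ozs3 at 23 °C stood above the other 5. The cold difference was 3.96 ± 0.29 in ozs3 (15.5-fold, place 16 among all rises) and 4.32 ± 0.29 in Col-0 (20.0-fold, place 9). So near to that limit the differences may be understated, which was not tested.

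No genotype difference was found for AT3G17130 at the precision of 3 arrays a group. At 23 °C it averaged 5.22 ± 0.81 in ozs3 and 5.06 ± 0.32 in Col-0, a difference of 0.16 ± 0.29 (interval -0.47 to 0.80, limma adjusted p = 0.821), and -0.30 without replicate 3 of ozs3 at 23 °C. At 4 °C it averaged 9.18 ± 0.14 in ozs3 and 9.38 ± 0.24 in Col-0, a difference of -0.20 ± 0.29 (interval -0.83 to 0.44, limma adjusted p = 0.722), beside 14.6% of all probe sets called in this contrast. The cold groups stood above the groups at 23 °C, and within each temperature the genotypes did not differ beyond their spread. The interaction was -0.36 ± 0.42 (interval -1.26 to 0.53, limma adjusted p = 0.623) and turned to 0.10 without that same array. A difference that misses the threshold does not show that the genotypes are alike, and the intervals give the sizes that these arrays still allow.

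Replicate 3 of ozs3 at 23 °C carried high values of AT5G62360 and AT3G17130 for its group. It exceeded the mean of the other arrays of its group by 0.84 for AT5G62360 and by 1.39 for AT3G17130, while its difference from that mean was -0.52 for AT5G62340. The median of this difference over all probe sets was -0.02. The part of this array in the smaller cold differences in ozs3 is given by the values without it: 3.72 for AT5G62360, with an interaction of -0.62 (limma adjusted p = 0.105), and 4.42 for AT3G17130.

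AT5G62340 moved the opposite way in the 2 genotypes. The arrays of ozs3 read 9.34, 9.10 and 9.10 at 4 °C, against 10.35, 9.71 and 9.51 at 23 °C. The arrays of Col-0 read 10.16, 9.77 and 10.16 at 4 °C, against 9.58, 8.51 and 8.91 at 23 °C. In each genotype the arrays of the 2 temperatures did not overlap, and the cold arrays were the lower ones in ozs3 and the higher ones in Col-0. The cold difference was -0.68 ± 0.24 in ozs3 and 1.03 ± 0.24 in Col-0 (2.05-fold higher at 4 °C). Arrays of equal number gave -1.01, -0.60 and -0.41 in ozs3 and 0.59, 1.26 and 1.25 in Col-0.

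The difference between these cold responses was -1.71 ± 0.34 (interval -2.45 to -0.97) and ranged from -2.00 to -1.46 when any 1 array was left out. The gene stands among the lowest interaction values of all probe sets, so it may have been chosen for this pattern, and the interaction and the genotype differences that make it up are given with no p. At 23 °C it averaged 9.85 ± 0.44 in ozs3 and 9.00 ± 0.54 in Col-0, a difference of 0.86 ± 0.24 with overlapping arrays. Arrays of equal number differed by 0.77, 1.20 and 0.60 at 23 °C, all higher in ozs3. At 4 °C it averaged 9.18 ± 0.14 in ozs3 and 10.03 ± 0.23 in Col-0, a difference of -0.85 ± 0.24, and every ozs3 array lay below every Col-0 array, a separation found in either direction for 30.8% of all probe sets. In order of level, Col-0 at 4 °C and ozs3 at 23 °C came first with overlapping arrays, and ozs3 at 4 °C and Col-0 at 23 °C came last, again with overlapping arrays. A call of higher in the cold in Col-0 together with lower in the cold in ozs3 was met by 82 of all 22746 probe sets (0.361%). Nothing is read from the gene's place among them, because it may have been chosen for this pattern.

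**Figure D2:**
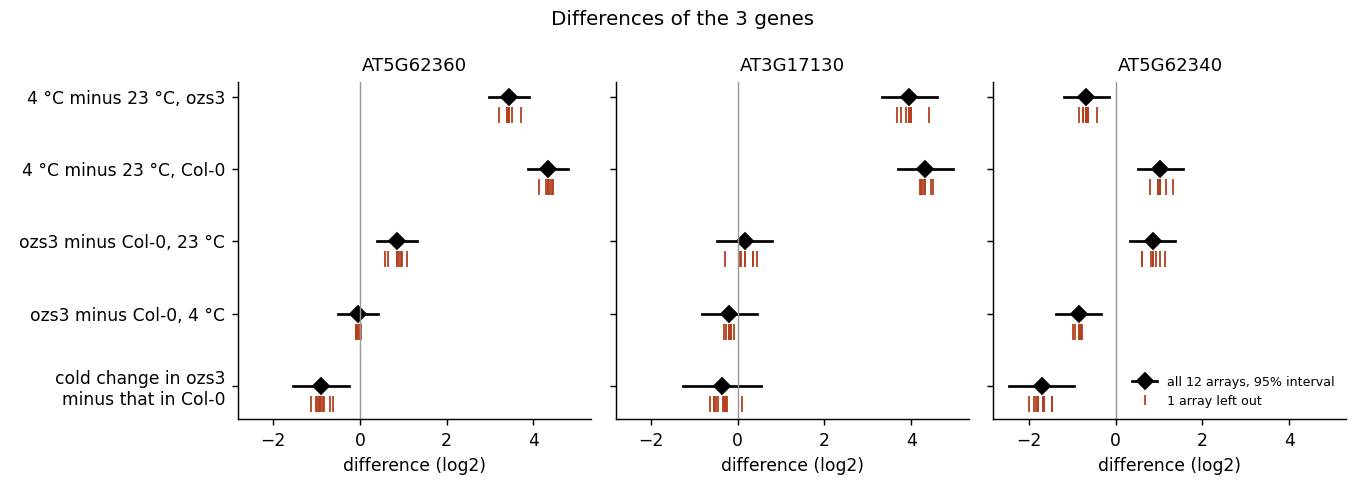
Differences in log2 units for the 3 genes; diamonds are the limma estimates from all 12 arrays, black lines their 95% intervals and red ticks the estimates with 1 array left out. The cold differences of AT5G62360 and AT3G17130 lie between 3.44 and 4.34, and those of AT5G62340 lie on either side of 0.

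Both AT5G62340 and AT5G62360 belong to a run of 4 consecutive protein-coding genes in the RefSeq order of TAIR10.1 genes, AT5G62330, AT5G62340, AT5G62350 and AT5G62360, all on the family list used here. The neighbours differed among themselves. AT5G62330 averaged 5.29 in ozs3 at 4 °C against 5.44 at 23 °C, and 5.53 in Col-0 at 4 °C against 5.18 at 23 °C, and passed the threshold in none of the 5 contrasts (for the interaction, -0.50 and limma adjusted p = 0.355). AT5G62350 followed AT5G62360 in the direction of each of its called differences. Its arrays read 13.93, 14.19 and 14.24 in ozs3 at 4 °C, against 12.48, 12.35 and 12.70 in ozs3 at 23 °C, and 13.86, 13.95 and 14.10 in Col-0 at 4 °C, against 11.97, 11.47 and 11.61 in Col-0 at 23 °C. The cold groups were above the groups at 23 °C, and at 23 °C every ozs3 array was above every Col-0 array.

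AT5G62350 rose in the cold by 1.61 ± 0.14 in ozs3 (limma adjusted p = 3.66e-07) and by 2.29 ± 0.14 in Col-0 (limma adjusted p = 3.01e-08). At 23 °C it was higher in ozs3 than in Col-0 by 0.83 ± 0.14 (limma adjusted p = 0.00256), and this call held with any 1 array left out, whereas at 4 °C the difference was 0.15 ± 0.14 (limma adjusted p = 0.531). Its cold rise was smaller in ozs3, with an interaction of -0.68 ± 0.19 (limma adjusted p = 0.0391), a call lost in 9 of 12 fits without 1 array, with array weights and with the arrays set to 1 common median. Differences between same-numbered arrays at 23 °C were 0.51, 0.88 and 1.10. At the locus of AT3G17130, the coding gene before it, AT3G17120, which is not on the family list, was higher at 4 °C by 0.79 ± 0.09 in ozs3 and by 0.70 ± 0.09 in Col-0 (limma adjusted p = 3.85e-06 and 1.39e-05). The gene after it, AT3G17140, on the family list, was dim: it rose by 0.31 ± 0.12 in ozs3 (limma adjusted p = 0.0492) and the difference in Col-0 was 0.21 ± 0.12 (limma adjusted p = 0.186). Whether the probe sets of neighbouring family genes share any hybridisation was not tested.

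**Figure D3:**
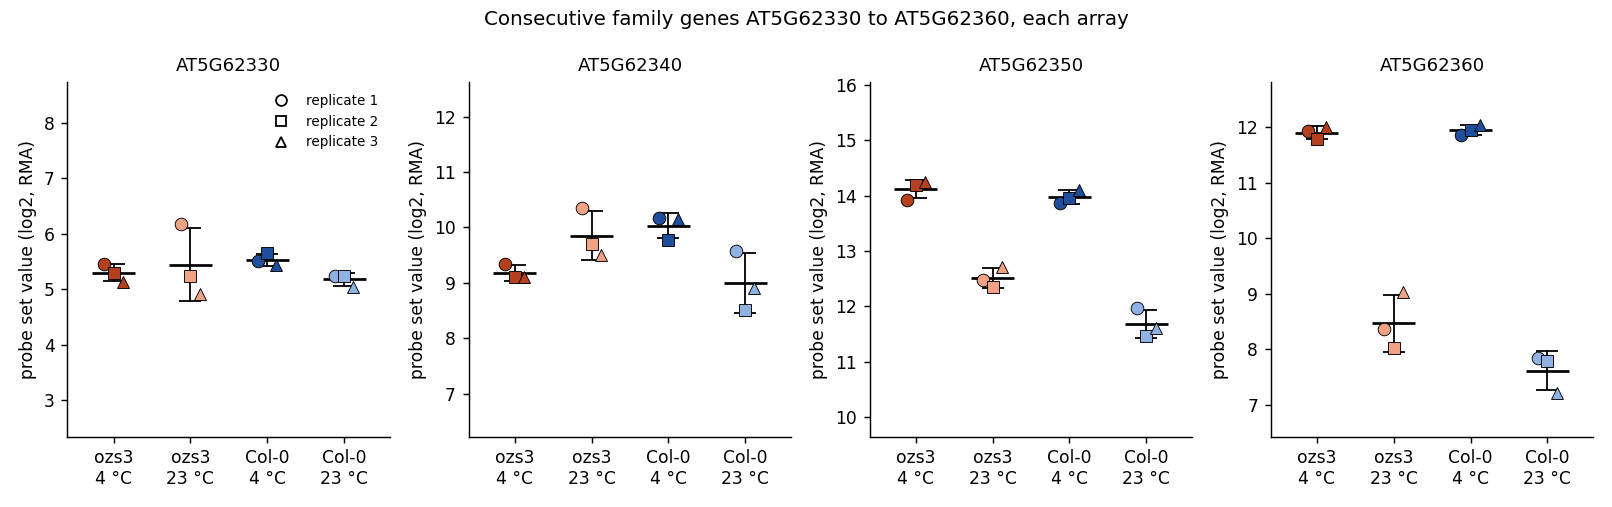
Log2 RMA value on each array for the 4 consecutive family genes; symbols are replicates, lines are group means and bars are the SD (n = 3), and all panels span the same number of log2 units. AT5G62350 and AT5G62360 are high in both cold groups, AT5G62340 is lower at 4 °C in ozs3 and higher in Col-0, and AT5G62330 shows overlapping levels in ozs3 and a difference of 0.35 in Col-0.

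None of the other measured genes on the family list changed in the cold as much as AT5G62360 and AT3G17130. Those 2 were chosen with their cold differences known, so nothing is read from this. AT5G62350, AT2G01610 and AT4G25250 had larger absolute differences than AT5G62340 in each genotype. In Col-0 the lead of AT2G01610 and of AT4G25250 was smaller than their SE. Of 73 loci on a list of pectin methylesterase and invertase inhibitor genes written from general knowledge of the family, 37 had a named probe set, 34 of them other than the 3 members, and 22 of these 34 were dim. In the cold in ozs3, 15 of the 34 rose and 5 fell, a called share of 58.8% beside 51.1% of all probe sets (24.9% higher and 26.2% lower), with a median difference of 0.24 against 0.05 over all probe sets. In the cold in Col-0, 7 of the 34 rose and 4 fell, a called share of 32.4% beside 43.9% (20.4% higher and 23.5% lower), with a median of 0.05 against a median within 0.01 of 0 over all probe sets. The list holds a larger part of dim genes than the array, so the shares are also given by level. Of the 12 that were not dim, 6 rose and 4 fell in ozs3 (83.3% called beside 62.6% of all probe sets that were not dim), and 4 rose and 3 fell in Col-0 (58.3% beside 58.0%). Of the 22 dim genes 9 rose and 1 fell in ozs3 (45.5% called beside 21.9% of all dim probe sets), and 3 rose and 1 fell in Col-0 (18.2% beside 8.14%). Over all 34 genes the counts in ozs3 were 10 higher and 5 lower with quantile normalization repeated. With every array set to 1 common median they were 21 higher and 4 lower, while the median of all probe sets was 0.18. The family's median lay 0.19 above that of all probe sets with the values as deposited, an offset that a common median cannot change, and 0.14 above it with quantile normalization repeated.

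The largest falls in the list were those of AT2G01610 and AT4G25250. AT2G01610 fell by 1.94 ± 0.26 in ozs3 (limma adjusted p = 2.86e-05) and by 1.06 ± 0.26 in Col-0 (limma adjusted p = 0.0044). AT4G25250 fell by 1.11 ± 0.23 in Col-0 (limma adjusted p = 0.00137). It was lower in the cold in ozs3 too, with an interaction of 0.26 ± 0.33 (limma adjusted p = 0.660). Besides AT5G62350, the largest called rises in ozs3 were 1.21 ± 0.10 for AT3G47380, 1.01 ± 0.16 for AT1G10770 and 0.94 ± 0.18 for AT1G14890, with limma adjusted p between 3.48e-07 and 6.43e-04. In Col-0 they were 0.85 ± 0.10 for AT3G47380 and 0.67 ± 0.10 for AT4G25260 (limma adjusted p = 1.05e-05 and 1.12e-04). Of the 34 genes 3 were called and at least 2-fold higher and 1 was called and at least 2-fold lower in the cold in ozs3, together 11.8%, where 11.3% of all probe sets were called and at least 2-fold different in either direction. In Col-0 1 was higher and 2 were lower by this measure, together 8.82%, beside 8.76%.

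For the contrasts between genotypes, the called shares of family genes are given beside those of all probe sets. At 23 °C 1 of the 34 was higher in ozs3 and 1 lower, 5.88% beside 6.34% of all probe sets (3.17% in each direction). Both were among the 12 family genes that were not dim, 16.7% beside 8.25% of all probe sets that were not dim. The lower one was AT3G47380, at 6.13 in ozs3 against 7.41 in Col-0, a difference of -1.27 ± 0.10 (limma adjusted p = 8.59e-06), and the higher one was AT5G62350. At 4 °C 5 were higher in ozs3 and 1 lower, 17.6% beside 14.6% (6.42% higher and 8.20% lower). By level, 2 of the 12 that were not dim were called (16.7% beside 19.1%). Of the 22 dim genes 4 were called, 18.2% beside 3.27% of all dim probe sets. AT3G47380 was again the lower one, by -0.92 ± 0.10 (limma adjusted p = 1.01e-04), and AT1G23205 was the highest of the others, at 9.24 in ozs3 against 8.53 in Col-0, a difference of 0.72 ± 0.13 (limma adjusted p = 0.00253). For AT1G10770, AT4G02250 and AT1G56100 the differences of 0.53, 0.33 and 0.30 passed with limma adjusted p between 0.0181 and 0.0479 and levels at or below 5.23. These calls depended on single arrays: with 1 array left out they were lost in 9 of 12 fits for AT1G10770, in 2 for AT4G02250 and in 10 for AT1G56100, with adjusted p of up to 0.164, 0.0655 and 0.173. All 3 were lost with quantile normalization repeated, and those of AT1G10770 and AT1G56100 also with array weights (adjusted p = 0.0861 and 0.0726) and with only the arrays compared (adjusted p = 0.102 and 0.118). In the interaction 4 of the 34 passed, 11.8% beside 10.1% of all probe sets (4.30% higher and 5.82% lower). By level, 2 of the 12 that were not dim passed (16.7% beside 13.2%) and 2 of the 22 dim genes (9.09% beside 2.26%). The largest was AT1G23205 with 0.79 ± 0.18 (limma adjusted p = 0.0173), which stayed called with any 1 array left out.

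**Figure D4:**
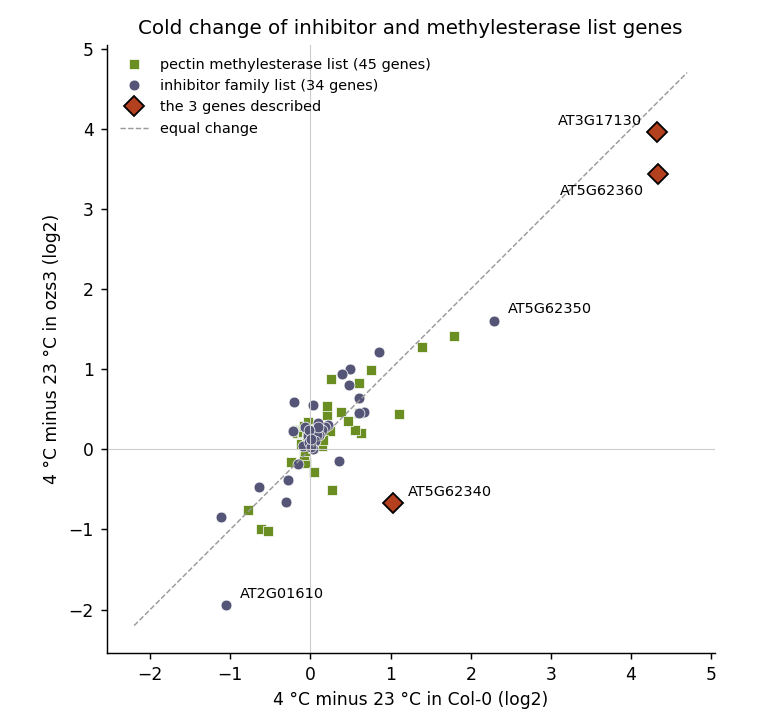
Cold difference (4 °C minus 23 °C, log2) in ozs3 on the vertical axis against that in Col-0 on the horizontal axis for the 3 genes described (diamonds), the other 34 measured genes of the inhibitor family list (circles) and 45 measured genes of the pectin methylesterase list (squares); the dashed line marks equal change. AT3G17130 and AT5G62360 lie far from the cloud near 0, and AT5G62340 lies to the right of 0 and below it.

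The pectin methylesterases, on which the inhibitors act, moved in both directions in the cold. Of 67 loci on the list 45 had a named probe set, 24 of them dim: 11 rose and 4 fell in the cold in ozs3 (33.3% called beside 51.1%), and 10 rose and 3 fell in Col-0 (28.9% beside 43.9%). This list too holds a larger part of dim genes than the array, and shares by level are not given for it. The median difference was 0.20 in ozs3 and 0.03 in Col-0. With 1 common median the counts in ozs3 were 28 higher and 3 lower. AT3G49220 rose by 1.41 ± 0.09 in ozs3 and by 1.79 ± 0.09 in Col-0, and AT5G64640 by 1.27 ± 0.11 in ozs3 and 1.40 ± 0.11 in Col-0, with limma adjusted p of 4.68e-07 or lower. ATPMEPCRD (AT2G43050) fell by 1.00 ± 0.11 in the cold in ozs3 (limma adjusted p = 5.48e-06). It was lower in the cold in Col-0 too, with an interaction of -0.39 ± 0.16 (limma adjusted p = 0.147).

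At 23 °C 4 methylesterase genes were higher in ozs3 than in Col-0 and 0 were lower, 8.89% beside 6.34% of all probe sets. ATPMEPCRB (AT4G02330), which RefSeq also lists as PME41, stood at 9.11 in ozs3 against 7.69 in Col-0, a difference of 1.42 ± 0.11 (limma adjusted p = 6.29e-06). AT3G49220 was higher by 0.77 ± 0.09 and PMEPCRF (AT5G53370) by 0.58 ± 0.09 (limma adjusted p = 3.33e-04 and 0.00229). At 4 °C 4 were higher and 1 lower, 11.1% beside 14.6%, led by ATPMEPCRB with 0.76 ± 0.11, AT5G19730 with 0.48 ± 0.10 and AT3G49220 with 0.38 ± 0.09 (limma adjusted p between 4.52e-04 and 0.0153). ATPMEPCRB also rose by 1.10 ± 0.11 in the cold in Col-0 (limma adjusted p = 1.5e-06), and its interaction of -0.66 ± 0.15 was the 1 call of the list in that contrast (limma adjusted p = 0.0149).

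Acid invertases are the targets of the related inhibitors. The 2 measured genes on the invertase list were both called lower in the cold. Of all probe sets, 26.2% were called lower in the cold in ozs3 and 23.5% in Col-0, and nothing is read from 2 genes. Whether each listed gene codes for an active invertase was not checked. Of 8 listed genes, cwINV6 and AT1G62660 had a named probe set, and cwINV6 fell by 1.12 ± 0.14 in ozs3 and by 0.44 ± 0.14 in Col-0 (limma adjusted p = 1.05e-05 and 0.0175). AT1G62660 fell by 0.59 ± 0.08 in ozs3 and by 0.31 ± 0.08 in Col-0 (limma adjusted p = 4.94e-05 and 0.00776). At 4 °C cwINV6 was at 8.15 in ozs3 against 8.76 in Col-0, and its cold change differed between genotypes by -0.68 ± 0.19 (limma adjusted p = 0.0393), a call lost in 8 of 12 fits without 1 array and with 1 common median (adjusted p = 0.0766). Its call in Col-0 was lost in 2 of the 12 fits.

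Among the enzymes that cut de-esterified pectin, both directions occurred. Of 19 measured polygalacturonase genes, 10 of them dim, 9 rose and 4 fell in the cold in ozs3 (68.4% called beside 51.1% of all probe sets). In Col-0 4 rose and 1 fell (26.3% beside 43.9%). Shares by level are not given for the lists of cutting enzymes. With 1 common median the counts in ozs3 were 11 higher and 3 lower. AT1G48100 rose by 3.28 ± 0.15 in ozs3 and by 3.33 ± 0.15 in Col-0 (limma adjusted p = 3.09e-09 and 5.2e-09), and AT1G02460 by 1.62 ± 0.15 in ozs3 and 1.70 ± 0.15 in Col-0. AT1G10640 rose by 2.18 ± 0.21 in Col-0. It was higher in the cold in ozs3 too, with an interaction of -0.11 ± 0.30 (limma adjusted p = 0.850). AT5G14650 was higher in ozs3 than in Col-0 at 4 °C by 1.18 ± 0.20 (limma adjusted p = 0.0017). Of 23 measured pectate lyase genes, 9 of them dim, 3 rose and 5 fell in ozs3 (34.8% beside 51.1%). In Col-0 4 rose and 6 fell (43.5% beside 43.9%). With 1 common median the split in ozs3 turned to 7 higher and 5 lower. AT3G09540 rose by 1.43 ± 0.10 in ozs3 and by 1.75 ± 0.10 in Col-0, while AT3G53190 fell by 2.04 ± 0.13 in ozs3 and by 1.08 ± 0.13 in Col-0. AT3G53190 was also higher in ozs3 than in Col-0 at 23 °C, by 0.89 ± 0.13 (limma adjusted p = 0.00124), and its interaction was -0.97 ± 0.18 (limma adjusted p = 0.00567).

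The smaller lists gave few genes. Of 6 measured pectin acetylesterase genes AT3G09410 fell by 1.22 ± 0.12 in ozs3 and by 0.50 ± 0.12 in Col-0 (interaction -0.71 ± 0.17, limma adjusted p = 0.0223, a call lost in 5 of 12 fits without 1 array). Of 20 listed genes of pectin synthesis 2 had a named probe set, and both rose in the cold. GAUT15, of the galacturonosyltransferase family, rose by 1.11 ± 0.11 in ozs3 and by 0.70 ± 0.11 in Col-0. AT3G49720 rose by 1.00 ± 0.09 in ozs3 and 1.07 ± 0.09 in Col-0. Of all probe sets, 24.9% were called higher in the cold in ozs3 and 20.4% in Col-0, and nothing is read from 2 genes. FER, the receptor kinase FERONIA, whose outer part binds pectin, rose by 0.55 ± 0.08 in ozs3 and by 0.38 ± 0.08 in Col-0. S1P, a subtilase that processes pectin methylesterase precursors, fell by 0.59 ± 0.08 in ozs3 and by 0.50 ± 0.08 in Col-0. SBT3.5, a subtilase too, rose by 0.39 ± 0.12 in ozs3 (limma adjusted p = 0.0135, lost in 2 of 12 fits without 1 array) and the difference in Col-0 was 0.21 ± 0.12 (limma adjusted p = 0.185).

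The genes most like each member over the 12 arrays were ranked by Pearson's r, as a description in which the arrays fall into 2 temperatures. Only the 13286 named genes were ranked, each by its brightest probe set, so other probe sets may be more alike. For AT5G62360 they were XTH20 (r = 0.995), a xyloglucan endotransglucosylase gene, AT1G11210, AT1G75200, AT4G38050 and AT4G30650 (r between 0.991 and 0.992). XTH20 was higher at 4 °C by 2.47 in ozs3 and by 3.00 in Col-0, and AT4G30650 by 3.49 in ozs3 and by 4.14 in Col-0. For AT3G17130 they were AT1G64890 and AT1G18210 (both r = 0.995), COR47 (r = 0.991), a dehydrin gene of the cold response, WNK9 (r = 0.990), a protein kinase gene, and AT1G11210 (r = 0.989), which both lists share. For AT5G62340 they were TUB5 (r = 0.935), a beta-tubulin gene, AT4G27240 (r = 0.916), AT3G16080 (r = 0.912), AT4G28650 (r = 0.896) and AT4G10280 (r = 0.887).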

How the data were processed

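RNA from roots was hybridised to 12 ATH1 arrays, 3 in each of the 4 groups. The deposited values are log2 intensities, 1 per probe set and array, made by the authors with RMA per the submitters' processing notes; the log2 scale was read from the values, and the RMA version and any genome build are not given in the sources used here. Among 22810 probe sets the 64 Affymetrix controls were not tested. The platform's probe table named 1 gene for 13513 of the other probe sets, several for 503 and none for 8730, and a RefSeq table of TAIR10.1 genes gave loci for 13436 and showed which genes are neighbours. For a gene with several probe sets the brightest one was used.

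limma 3.58.1 in R 4.3.3 fitted 1 group-means model to all arrays (8 residual and 5.42 prior degrees of freedom), with Benjamini-Hochberg correction within each contrast over 22746 probe sets and calls at adjusted p under 0.05. The steps were tested on simulated data. The members and all gene lists were chosen with earlier results of these data known. The lists were written from general knowledge, since the tables carry no family names. Named are the 3 genes, the 5 largest called differences of the family per contrast and up to 3 genes of each other list by adjusted p. The nearest neighbours and the 5 most similar named genes per member are also given. The plan gave AT5G62340 a p at each temperature; these were withheld because they make up its interaction. No sequences are shown, since none came with the reference tables used here.

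Same-numbered arrays were checked by correlating their deviations from the group means across probe sets. Each pair exceeded 0.1 for the cold in Col-0 (0.195, 0.249 and 0.273), for the genotypes at 23 °C (0.294, 0.326 and 0.473) and at 4 °C (0.291, 0.198 and 0.353), but not for the cold in ozs3 (0.320, 0.0809 and 0.310). The pairing thus rests on the data and on equal numbers in the labels. The main fit leaves it out, and the replicate number as a block is an alternative. No 2 arrays were identical (at most 0.0352% equal values). Alternatives were the block, each array left out, only the arrays compared, an intensity trend, array weights, repeated quantile normalization, 1 common median, dim probe sets left out, hand-written loci only and every probe set counted. A search of gene names added 0 loci to the lists, so the setting with hand-written loci only could change no result and is no check.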

Additional observations from a re-analysis of the deposited data

Results flagged for a closer look

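Of the 34 genes of the inhibitor family other than the 3 members, 4 passed the threshold in the interaction of the limma model. That is 11.8% beside 10.1% of all probe sets, and nothing is read from a share so near that of the array. For the 22 dim genes the share was 9.09% beside 2.26% of all dim probe sets, which rests on 2 genes. AT5G62340 was lower in the cold in ozs3 and higher in Col-0, with a difference between the responses of -1.71, a description since the gene may have been chosen for it. AT5G62350, next to it, rose in both genotypes but less in ozs3 (-0.68, limma adjusted p = 0.0391), a call lost in 9 of 12 fits without 1 array, with array weights (adjusted p = 0.101) and with 1 common median (adjusted p = 0.0763). AT1G23205 rose in ozs3 by 0.58 ± 0.13 and differed by -0.20 ± 0.13 in Col-0, without a call there (0.79 between the responses, limma adjusted p = 0.0173). AT1G56100 and AT4G02250, both dim, gave 0.52 and 0.45 (limma adjusted p = 0.0257 and 0.0296), calls that were lost in 6 and 7 of 12 fits without 1 array.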

How the results depend on the processing

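The directions of the cold differences of the 3 genes held under each alternative that could change them. The cold difference of AT3G17130 in ozs3 ranged from 3.68 to 4.42 with 1 array left out. The higher level of AT5G62360 in ozs3 at 23 °C ranged from 0.57 to 1.08 with 1 array left out, and its call was lost with only the arrays compared (0.85, limma adjusted p = 0.0928) and with array weights (0.65, limma adjusted p = 0.0516). Its interaction ranged from -1.12 to -0.62. With 1 array left out, calls over all probe sets ranged from 767 to 1551 at 23 °C (1442 with all arrays) and from 1439 to 2279 in the interaction (2300), and calls among the 34 other family genes from 3 to 6 at 4 °C (6) and from 1 to 5 in the interaction (4). With the replicate block the calls at 23 °C were 2253, 4 of them family genes (2 without it), and with array weights 2323; the block changed no call on the 3 genes, and among the named genes of the other lists it added 6 calls and removed none. Family calls at 4 °C were 3 with only the arrays compared and 3 with quantile normalization repeated. With dim probe sets left out, which removes 22 of the 34 genes, the family calls were 10 in the cold in ozs3 (20), 7 in the cold in Col-0 (11), 2 at 4 °C and 2 in the interaction. Setting the arrays to 1 common median moved the share of higher calls to 66.1% in the cold in ozs3 (48.8% as deposited), to 60.7% between the genotypes at 4 °C (43.9%) and to 64.0% in the interaction (42.5%), with medians of all probe sets at 0.18, 0.08 and 0.11. Causes of these changes other than the removal of probe sets or arrays were not tested.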
